A study of Mus musculus with 3 samples.

Results

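The miRNA pool of the resting tibialis anterior (TA), the muscle at the front of the shin, is described here from 1 of the 3 small RNA libraries in the series, the uninjured day 0 library. It was chosen by its time point label, and every miRNA listed for it was used. The series follows the TA of wild-type (WT) C57BL/6 mice at 10 weeks of age through injury by cardiotoxin (CTX), a toxin of snake venom that destroys myofibers. Material from 4 samples was combined into the single day 0 library, so no replicates exist and the spread between mice cannot be estimated. The labels speak of a saline control but do not say whether the day 0 muscle received saline, and the study calls it uninjured.

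miRNAs are short RNAs that guide Argonaute proteins to messenger RNAs, mainly through the seed, bases 2 to 8 of the mature strand, and so lower the output of their targets. Each is cut from a hairpin with a 5p and a 3p arm, and usually one arm is kept and the other degraded. In skeletal muscle the best-known members are the myomiRs, miR-1, miR-133, miR-206, miR-208 and miR-499, which muscle transcription factors or myosin genes switch on. A whole muscle also contains vessels, nerve, connective tissue and blood, each with miRNAs of its own.

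The library held 8507580 reads over 1138 mature miRNAs. At least 1 read was counted for 784 of them, and 354 were at 0. A count of 0 allows a level of up to 3 reads, or 0.353 CPM (reads per 1000000). All shares below are shares of these reads, and their 95% Wilson intervals cover counting error alone, because reads copied by PCR are not independent molecules. Each miRNA also has a deposited expression value, a whole number that was never above the read count and equalled it for 538 of the 784 detected miRNAs. How it was made is not stated in the sources used here. The labels mention unique barcodes on the 3′ adapter without tying them to this value, so whether it counts barcodes, and therefore molecules rather than PCR copies, is not known. It is given beside the reads because it is much flatter, with 8.09 units per 100 reads for miR-1a-3p against a median of 100 for miRNAs with 1 to 9 reads.

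The miRNAs that filled the resting pool are shown first by sequence. Mature sequences were matched in RefSeq (GRCm38.p6) for 953 names, which held 56.0% of the reads and included 19 of the 25 most abundant miRNAs. The first set holds the leading member of 8 of the 10 largest seed families, together with miR-100-5p, which shares its seed with miR-99a-5p. Capitals mark the seed.
miR-22-3p: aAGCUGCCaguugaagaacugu
miR-26a-5p: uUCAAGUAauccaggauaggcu
miR-126a-3p: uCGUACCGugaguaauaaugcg
miR-99a-5p: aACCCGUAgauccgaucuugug
miR-100-5p: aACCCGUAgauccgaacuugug
miR-16-5p: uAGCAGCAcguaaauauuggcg
miR-206-3p: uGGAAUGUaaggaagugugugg
miR-181a-5p: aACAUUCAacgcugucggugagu
miR-451a: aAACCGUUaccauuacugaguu

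The second set holds the 8 most abundant members of let-7, the family with the most members among the 10 largest. They share every base of the seed and differ in a few bases outside it, again with the seed in capitals.
let-7f-5p: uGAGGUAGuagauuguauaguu
let-7c-5p: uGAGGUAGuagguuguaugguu
let-7d-5p: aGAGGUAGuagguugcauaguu
let-7a-5p: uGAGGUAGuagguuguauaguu
let-7i-5p: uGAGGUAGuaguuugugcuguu
let-7b-5p: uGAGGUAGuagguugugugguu
let-7g-5p: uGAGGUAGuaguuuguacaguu
let-7e-5p: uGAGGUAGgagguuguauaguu

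Very few miRNAs filled the resting muscle. miR-1a-3p, a myomiR, and miR-22-3p, which is abundant in heart and skeletal muscle, together held 44.5% of the reads, and adding miR-378a-3p, a regulator of mitochondrial metabolism, brought the sum to 53.8%, against 18.0% for the same 3 by expression value. Thus 3 miRNAs made up more than 50% of the reads, 25 made up 90% and 90 made up 99%. By the deposited expression value the same steps took 13, 53 and 155 miRNAs. The same 10 miRNAs led by both values, and so did the same 25.

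**Figure D1:**
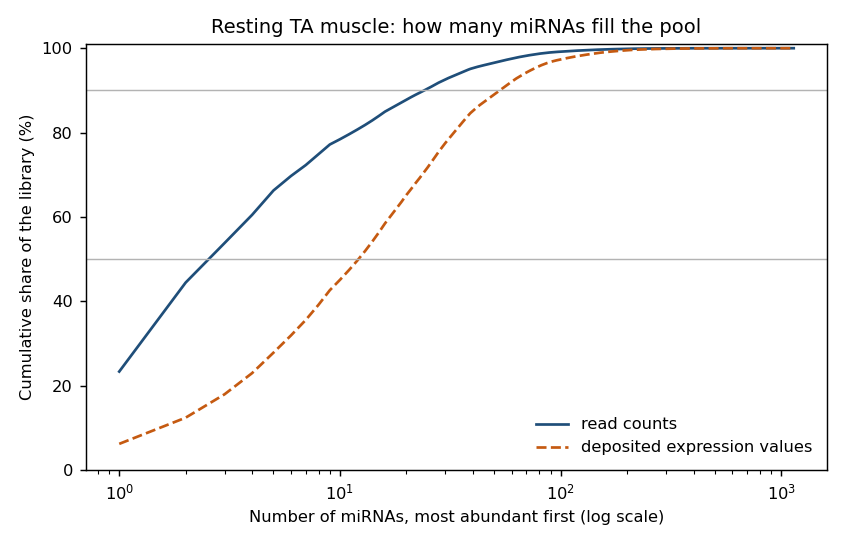
Cumulative share of the day 0 library (%) against the number of miRNAs taken from the most abundant down (log axis), for read counts (solid line) and deposited expression values (dashed line), with grey lines at 50% and 90%. The read curve reaches 50% with 3 miRNAs and 90% with 25, whereas the expression curve needs 13 and 53.

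The tail was long and nearly empty. The median detected miRNA had 12 reads, and miR-1a-3p had 165605 times as many. By expression value the median was also 12, and miR-1a-3p was 13391 times above it. Between 1 and 9 reads were counted for 363 miRNAs, which made up 0.0133% of the library, and 10 to 99 reads for 188 miRNAs, which made up 0.0778%. Another 120 miRNAs had 100 to 999 reads (0.549% of the library) and 67 had 1000 to 9999 reads (3.26%). The 35 miRNAs with 10000 to 99999 reads held 16.5%, the 9 with 100000 to 999999 reads held 35.1%, and the remaining 44.5% belonged to miR-1a-3p and miR-22-3p.

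By reads, the 2 leading miRNAs were close to each other and apart from the rest. miR-1a-3p had 1987261 reads (23.4%, interval 23.33% to 23.39%) and miR-22-3p had 1794852 (21.1%), a ratio of 1.11 between them. miR-378a-3p followed with 796049 reads (9.36%), so that miR-22-3p exceeded it 2.25-fold. By expression value, miR-1a-3p at 160688 and miR-22-3p at 160456 were nearly level, with 6.22% and 6.21% of the total. miR-378a-3p, at 143048 (5.54%), was then only 1.12-fold below miR-22-3p, so the gap after the leaders rests on the reads. Per 100 reads the expression value fell from 18.0 units for miR-378a-3p to 8.94 for miR-22-3p and 8.09 for miR-1a-3p. It therefore separates these leaders less than the reads do.

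Vascular and widely expressed miRNAs came next. miR-26a-5p, which promotes myogenic differentiation, had 568741 reads (6.69%). miR-126a-3p, the miRNA of endothelial cells, had 492044 reads (5.78%), and miR-143-3p, which marks smooth muscle and pericytes, had 291626 (3.43%). The myomiR miR-133a-3p followed with 220082 reads (2.59%) and miR-1b-5p with 219729 (2.58%). These 2 had overlapping intervals and a ratio of 1.00, and their order turned round by expression value. miR-99a-5p had 195509 reads (2.30%), and the myomiR miR-206-3p closed the first 10 with 105359 reads (1.24%).

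The next 15 ranks were held mostly by let-7 members and other miRNAs found in many cell types. let-7f-5p, let-7c-5p, let-7d-5p and let-7a-5p had 100911, 95904, 91776 and 90637 reads. miR-16-5p, a brake on the cell cycle, had 90292 reads, and miR-181a-5p had 87582. miR-100-5p had 65641 reads, miR-451a, made in red blood cell precursors, had 60399, let-7i-5p 59260 and miR-191-5p 58586. The last places went to miR-23b-3p (48039 reads), miR-196a-5p (47361), which lies within the Hox gene clusters, let-7b-5p (42660), let-7g-5p (42276) and miR-24-3p (40936, or 0.481% of the library). The counting intervals of neighbours overlapped in 6 of the 24 neighbouring pairs, including let-7d-5p with let-7a-5p, let-7a-5p with miR-16-5p, and let-7b-5p with let-7g-5p. Of the 25, 15 came from the 5p arm, 9 from the 3p arm and 1, miR-451a, is listed with no arm. Its hairpin is known to be cut by Argonaute 2 without Dicer.

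**Figure D2:**
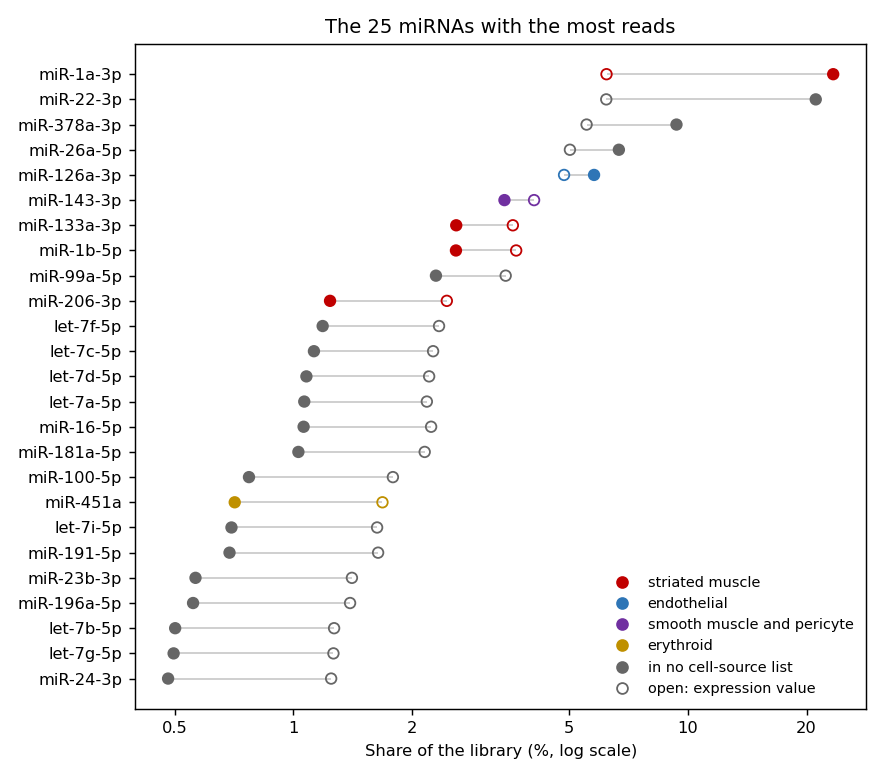
Share of the day 0 library (%, log axis) for the 25 miRNAs with the most reads, with filled points for reads, open points for the deposited expression value and colours for cell-source lists. Reads run from 23.4% for miR-1a-3p down to 0.481% for miR-24-3p, and the expression values from 6.22% down to 1.25%.

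The loci of these miRNAs were taken from the GENCODE M21 and RefSeq annotations of GRCm38. Mir22 (chr11:75463716-75463810, plus strand) lies in an exon of its noncoding host Mir22hg and in an annotated exon of Tlcd2. Mir126a (chr2:26591357-26591429, plus strand) overlaps an annotated exon of Egfl7, an endothelial gene. miR-26a-5p is made from a pair of loci, Mir26a-1 in an intron of Ctdspl (chr9:119031796-119031885) and Mir26a-2 overlapping an annotated exon of Ctdsp2 (chr10:126995530-126995613), both on the plus strand. Mir206 (chr1:20679010-20679082) and Mir133b (chr1:20682769-20682887) both lie in exons of the noncoding gene Gm28653. Mir499 (chr2:155622880-155622958) lies in an intron of Myh7b, a slow-type myosin gene. For 60 of the 1122 names with a position, the mature miRNA can come from more than 1 locus, and these names held 39.8% of the reads, so the reads cannot be divided between their loci.

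Among the matched names, most of the large seed families rested on a single member, and let-7 did not. The 953 matched names formed 820 seed families, of which 565 had at least 1 read, and the 10 largest held 49.1% of all reads in the library. miR-22-3p (21.1%), miR-126a-3p (5.78%), miR-206-3p (1.24%) and miR-451a (0.710%) were each the only matched name with their seed. miR-1a-3p, miR-378a-3p, miR-143-3p and miR-133a-3p had no matched sequence and are in no seed family here. miR-1 and miR-206 are known to share a seed, so the miR-206-3p family as counted lacks miR-1a-3p. The order of the families holds for the reads of matched names alone. By expression value let-7 held 13.5% and miR-22-3p 6.21%. miR-26a-5p made up 96.0% of the miR-26 family, which held 6.97% of the reads, and miR-26b-5p supplied the other 23878 reads. miR-181a-5p made up 88.9% of the miR-181 family (1.16% of the reads), beside miR-181b-5p with 5927 reads, miR-181c-5p with 4601 and miR-181d-5p with 353.

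The let-7 family, which keeps cells differentiated and is low in stem cells, held 533191 reads in 10 members, or 6.27% of the library, and 13.5% of the expression total. No member exceeded 18.9% of the family, the part of let-7f-5p. let-7c-5p made up 18.0%, let-7d-5p 17.2%, let-7a-5p 17.0%, let-7i-5p 11.1% and let-7g-5p 7.93%, just below let-7b-5p. The remaining members were scarce, with 5559 reads for let-7e-5p, 4193 for miR-98-5p and 15 for let-7k. As the sequences printed above show, several let-7 members differ from each other by few bases, and a read with a sequencing error can be counted under the wrong one.

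The miR-99/100 family, known to target mTOR signalling, held 3.38% of the reads. The printed sequences of miR-99a-5p and miR-100-5p are nearly identical, and the counting could split reads between them. miR-99a-5p made up 68.1% of it, miR-100-5p 22.9% and miR-99b-5p 9.06%. The miR-15/16 family, which restrains cyclins and other cell cycle genes, had 6 members and 152842 reads (1.80%). miR-16-5p made up 59.1% and miR-322-5p, which rises as myoblasts leave the cell cycle, 26.2%. miR-15a-5p, miR-497a-5p, miR-195a-5p and miR-15b-5p followed with 9482, 8376, 3359 and 1330 reads. In the miR-27 family (0.718% of the reads), miR-27a-3p had 38631 reads and miR-27b-3p 22472, and these sequences are likewise nearly identical.

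**Figure D3:**
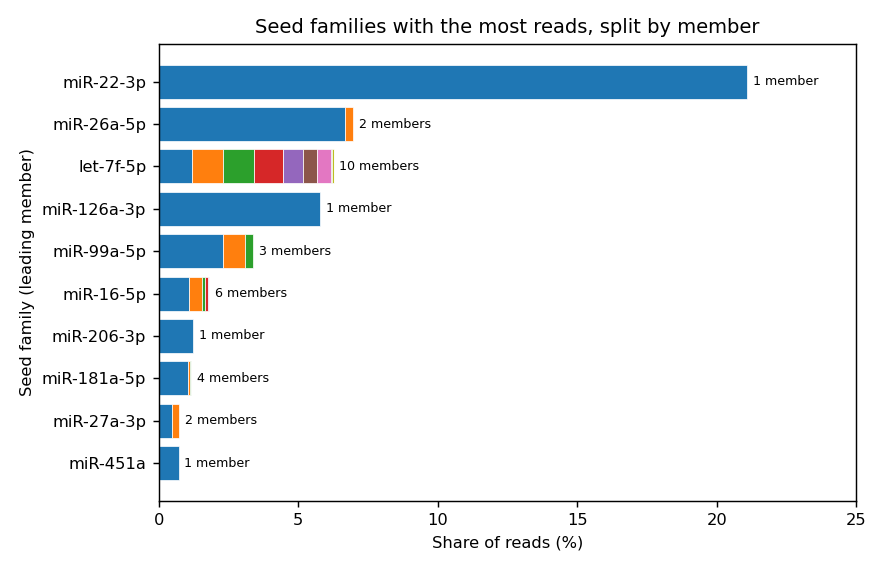
Share of all reads in the day 0 library (%) for the 10 seed families with the most reads, each bar split into its members in order of reads and named for its leading member. The miR-22-3p bar is 1 member with 21.1%, whereas the let-7 bar of 6.27% is divided among 10 members, of which 7 hold between 7.93% and 18.9% of the family.

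Grouping by name rather than by seed brought in the miRNAs that had no matched sequence. By name, the 10 largest families held 85.9% of the reads. The miR-1 family was the largest by reads at 25.9% in 5 names, 90.02% of it miR-1a-3p, and the miR-22 family held 21.1%. The miR-378 family held 9.60%, with 97.5% of its reads in miR-378a-3p. The miR-133 family held 2.71%, with 95.4% of its reads in miR-133a-3p. let-7 held 6.30% in 20 names, 18 of them detected. The order of these families rests on the reads. By expression value miR-1a-3p held 6.22% and miR-1b-5p 3.67%, against 13.5% for the let-7 seed family.

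The matched sequences differed in base composition between the abundant and the undetected names. A first base U, the base that Argonaute proteins bind best, was present in 41.6% of the 953 matched names, in 36.2% of the 290 matched names at 0 reads and in 60% of the 25 matched names with the most reads. Weighted by reads, U led 45.7% and A 50.3% of the matched reads, the latter largely from miR-22-3p, and weighted by expression value U led 60.7%. The matched reads are 56.0% of the library and lack miR-1a-3p, so the order of A and U covers them alone. The mean GC content was 53.5% for the matched names at 0 reads and 45.2% for the 25 with the most reads. Mature miRNAs of 22 nucleotides made up 48.7% of matched names and 90.4% of matched reads. These are descriptions of 1 library, and the part of ligation or sequencing preference in them was not tested.

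Most hairpins delivered their reads from 1 arm. Both arms were listed for 386 stems (names without the arm), which held 99.1% of the reads, and 176 of these stems had at least 100 reads. The 5p arm had more reads in 102 of the 176 and the 3p arm in 74. The major arm held at least 95% of the reads in 119 stems and at least 99% in 83, with a median of 98.7%. In 18 stems the minor arm had no read. Minor arms together gave 0.848% of the reads of these stems, and 2.72% by expression value.

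Although more stems favoured the 5p arm, the 3p arm held more reads. Over all names, 70.8% of the reads were 3p and 28.3% were 5p, and 88 names with no arm held 0.855%. The 3p reads came from the leaders, since miR-1a-3p, miR-22-3p and miR-378a-3p are all 3p arms. In the 176 stems, the 5p arm held 28.5% of the reads, and 37.3% with miR-1a-3p left out of the total. By expression value, the 5p arm held 54.6% of the total of the 176 stems, so the call that 3p dominates turned round.

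The leaders were strongly one-sided. miR-22-3p had 1202 reads for each read of miR-22-5p (1493 reads), and the 3p arm of miR-1a had 2970 for each read of its 5p arms (669 reads). miR-26a-5p exceeded its 3p arms 2887-fold, with 197 reads on the 3p side. By expression value these ratios were 108 for miR-22, 242 for miR-1a and 669 for miR-26a. miR-206-5p was at 0 against 105359 reads of miR-206-3p, and let-7b-3p was at 0 against 42660 reads of let-7b-5p. The most one-sided stems with both arms detected were miR-1b (219729 reads of 5p against 1 of 3p), let-7g (42276 of 5p against 1 of 3p) and miR-143 (291626 of 3p against 9 of 5p). The miR-1b-5p count is uncertain, since its hairpin lies opposite that of miR-1a on the other strand.

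A few abundant stems kept visible minor arms. miR-378a-5p had 10340 reads, 77.0 times fewer than miR-378a-3p (14.7 times by expression value). miR-126a-5p had 13535 reads, or 2.68% of its stem, and let-7d-3p had 5359 reads, or 5.52% of its stem. Their expression values were 12430 against 125421 for miR-126a-3p, and 5101 against 57056 for let-7d-5p. The 3p side of miR-181a held 4.37% of its stem. Among stems with at least 1000 reads, the most even was miR-30e, with 1116 reads of 5p and 1022 of 3p, a 5p share of 52.2%. miR-199a, a miRNA of fibroblasts, had 9160 reads of 5p and 7431 of 3p (55.2% 5p). The next were miR-872 with 62.8% 5p, miR-338, which lies in an intron of the nervous-system gene Aatk, with 35.3% 5p (353 against 648 reads), and miR-486a with 65.7% 5p (8634 against 4514 reads). The evenness of miR-199a and miR-486a rests on an arm whose count is listed equally under a sister name. miR-199b, with the same 7431 reads of 3p, was 3.58% 5p, and miR-486b, with the same 8634 reads of 5p, was 95.7% 5p.

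**Figure D4:**
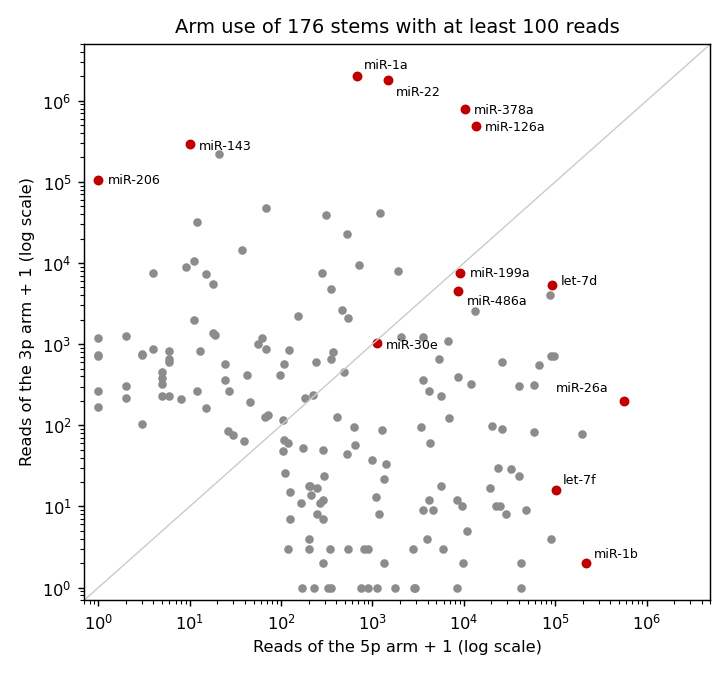
Reads of the 3p arm (vertical axis) against reads of the 5p arm (horizontal axis) in the day 0 library, both plus 1 on log axes, for the 176 stems with both arms listed and at least 100 reads (points), with named stems in red and a grey line at equality. miR-1a and miR-22 lie far above the line, miR-26a and miR-1b far below it, and miR-30e on it.

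Cell-source lists, groups of miRNAs known to be enriched in 1 kind of cell, were then summed. The markers of the labelled tissue were present, as the striated muscle list held 29.9% of the reads, with 14 of its 15 listed names detected and only miR-206-5p at 0. miR-1a-3p made up 78.0% of the list, and with miR-1a-3p left out of both the list and the total, the list held 8.58%. By expression value the list held 16.4% of the total and miR-1a-3p alone 6.22%. As this is whole muscle, more cells of a type and more miRNA per cell cannot be told apart in any of these shares.

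Within the striated list, miR-1a-3p, miR-133a-3p and miR-206-3p stood far above the miRNAs carried by slow and heart myosin genes. miR-1a-3p had 9.03 reads for each read of miR-133a-3p, although both are cut from the same primary transcripts, and 18.9 for each read of miR-206-3p. By expression value these ratios were 1.73 and 2.54. miR-133b-3p, transcribed with miR-206, had 10552 reads, 9.98 times fewer than miR-206-3p and 20.9 times fewer than miR-133a-3p (6.49 and 9.54 times by expression value). miR-499-5p, carried by the slow myosin gene Myh7b, had 2689 reads (0.0316%), 739 times fewer than miR-1a-3p, or 61.3 times fewer by expression value. The heart and slow-fibre miRNAs miR-208b-3p and miR-208a-3p, carried by Myh7 and Myh6, had 4 and 3 reads, close to the limit of detection, and miR-208a-5p had 2.

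The remaining striated names were minor arms. miR-1a-1-5p had 657 reads and miR-1a-2-5p 12, and since these 5p arms are listed per locus, they are the reads that separate Mir1a-1 on chromosome 2 from Mir1a-2 on chromosome 18. miR-133a-5p had 20 reads, miR-133b-5p had 10 and miR-1b-3p had 1. miR-1b-5p is an uncertain entry. Mir1b lies on the plus strand of chromosome 18 within an intron of Mib1 and covers all 72 bases of Mir1a-2, which is on the minus strand. Whether the counting used the strand is not stated in the sources used here. Whether reads of Mir1a-2 were counted under miR-1b-5p was not tested. Without miR-1b-5p the striated list held 27.3% of the reads.

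miR-486, which is enriched in both muscle and red cells and so was kept apart, held 22173 reads (0.261%, or 0.808% by expression value). miR-486a-5p and miR-486b-5p had the same count, 8634, as did miR-199a-3p and miR-199b-3p (7431 each), which have the same sequence. Such names may hold the same reads counted under both. In the sequence-matched names, counting equal sequences with equal counts once would remove 8114 reads, or 0.0954% of the library.

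Among the lists, those of vessels held the most reads after muscle, nearly all of them from miR-126a-3p and miR-143-3p. The endothelial list held 5.94% of the reads (5.34% by expression value), 97.3% of it miR-126a-3p, with 5 reads for miR-126b-3p and 0 for miR-126b-5p. The smooth muscle and pericyte list held 3.50% (4.30% by expression value), 98.0% of it miR-143-3p. miR-145a-5p, cut from the same cluster as miR-143 and likewise a miRNA of contractile smooth muscle, had 5362 reads, 54.4 times fewer than miR-143-3p (20.6 times by expression value). The stromal list of fibroblast miRNAs held 25130 reads (0.295%, or 0.924% by expression value). It was led by miR-199a-5p with 9160 reads and included 593 reads of miR-214-3p. The sum holds 7431 reads under each of miR-199a-3p and miR-199b-3p, which may be the same reads.

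The blood lists held less than the vessel lists by both values, an order that rests on miR-126a-3p and miR-143-3p. The next vessel names, miR-126a-5p with 13535 reads and miR-145a-5p with 5362, lay below miR-451a and miR-150-5p. The erythroid list held 0.715% of the reads (1.70% by expression value), 99.4% of it miR-451a. miR-144-3p, which lies next to miR-451a on chromosome 11, had 365 reads and miR-144-5p 23, so miR-451a exceeded miR-144-3p 165-fold by reads. The leukocyte list held 43899 reads (0.516%, or 1.37% by expression value), and 91.7% of these were miR-150-5p, a miRNA of mature lymphocytes, with 40266 reads. The myeloid miR-223-3p had 832 reads, 48.4 times fewer than miR-150-5p. miR-342-3p had 1190 reads, miR-155-5p, induced in activated immune cells, 1121, miR-142a-3p 214 and miR-142a-5p 181, and miR-155-3p and miR-142b were at 0. The library does not show whether these reads come from blood in the vessels or from cells within the tissue.

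The lists of neurons and of cell types not native to muscle held few reads. The epithelial list, the miR-200 family with miR-203 and miR-205, held 299 reads (0.00351%), 161 of them miR-203-3p, with miR-141-5p, miR-200a-5p, miR-200b-5p, miR-200c-5p and miR-205-3p at 0. The neuronal list held 107 reads (0.00126%), led by miR-9-5p with 39, and miR-129b-5p was at 0. The list leaves out miR-9b-3p (210 reads) and miR-124b-3p (1 read), and with them it held 318 reads (0.00374%), led by miR-9b-3p. The hepatocyte list held 58 reads, 55 of them miR-122-5p, and 156 reads (0.00183%) with miR-122b-5p (98 reads), which it leaves out. The sensory-cell list held 118 reads, led by miR-183-5p with 57, with miR-182-3p and miR-183-3p at 0. The neuroendocrine list held 3095 reads (0.0364%), but 2622 of these were miR-7a-1-3p, which lies in an intron of the widely expressed gene Hnrnpk, and miR-375-3p, the islet miRNA, had 9. miR-7a-2-3p was at 0.

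**Figure D5:**
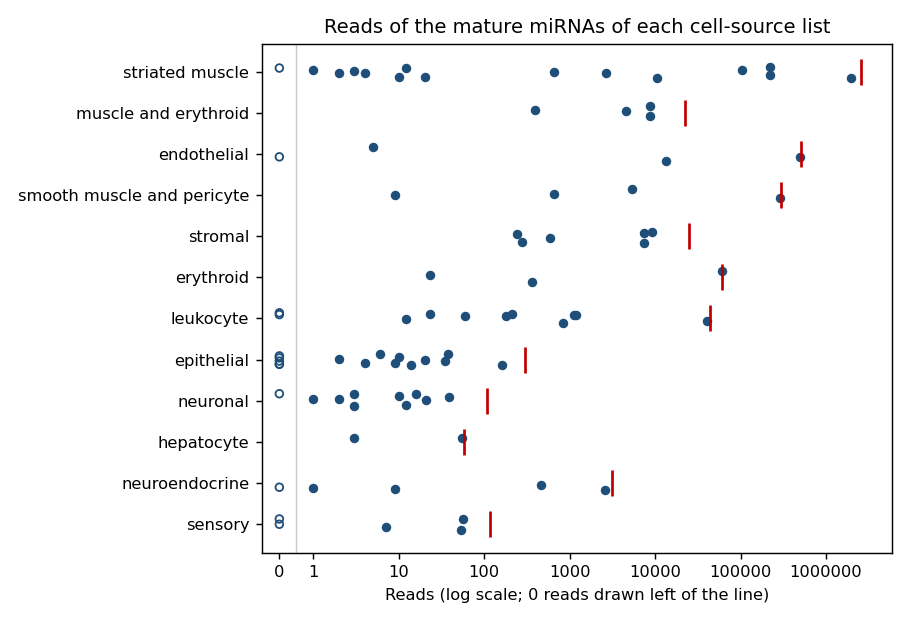
Reads in the day 0 library (log axis) of each mature miRNA in 12 cell-source lists (blue points, open and left of the line where the count was 0), with a red bar at the sum of each list. The striated muscle sum is 2546381 reads, the endothelial sum 505584 and the smooth muscle and pericyte sum 297659, whereas the epithelial, neuronal, hepatocyte and sensory sums, drawn without miR-9b-3p, miR-124b-3p and miR-122b-5p, lie between 58 and 299.

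All lists together covered 84 names and 41.2% of the reads, so 58.8% of the reads belonged to miRNAs in no list. miR-22-3p, miR-378a-3p and miR-26a-5p alone held 37.1%. Of the 25 most abundant miRNAs, 7 were in a list, and these 7 held 39.7% of the reads. The cell types that supply most of the pool outside the lists therefore cannot be read from this library.

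Neighbouring miRNA genes supplied much of the pool. Hairpins on 1 strand within 10 kb of the next formed 61 clusters with 374 mature names, which held 47.9% of the reads. Mir1a-1 and Mir133a-2 (chr2:180389048-180398482, plus strand) could account for 26.0% of the reads and their copy on chromosome 18, Mir133a-1 with Mir1a-2, for 25.9%, but 99.97% of the first sum is shared with the other copy. By expression value the first cluster held 9.85%. The Mir145a and Mir143 cluster, also on chromosome 18, held 3.50%.

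The following clusters carried miR-99a and let-7. Mir99a and Mirlet7c-1 (chr16:77598936-77599750, plus strand), in introns of the noncoding gene Mir99ahg, held 3.43%, with 2.04 reads of miR-99a-5p for each read of let-7c-5p, which also has a locus on chromosome 15. Mirlet7d, Mirlet7f-1 and Mirlet7a-1 (chr13:48536012-48538272, minus strand), in exons of the noncoding gene 6720427I07Rik, held 3.40%. Its 3 leading arms were nearly level, from 100911 reads for let-7f-5p to 90637 for let-7a-5p, although both of these also have another locus. Mir206 and Mir133b, which have no other locus, held 1.36%.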

How the data were processed

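Small RNAs of 18 to 30 nucleotides from TA muscle were sequenced on the BGISEQ platform. HISAT, Bowtie2 and the build GRCm38.p6 are named in the submitters' processing notes, with no role given. The authors deposited a read count per mature miRNA without normalization, and a second expression value, treated as a score because its making is not stated. Shares were read counts over the file total, with Wilson 95% intervals. Seeds were bases 2 to 8 of RefSeq mature sequences, and positions came from RefSeq and GENCODE M21 (GRCm38). Arm use was taken over stems with at least 100 reads. With 1 library no test between conditions was made. The names given are the 25 with the most reads, all striated members, the leader and 0-read members of the other lists, 10 seed families, 8 stems at the extremes of arm use and 5 clusters, with some further values chosen after they were seen. The members and lists were chosen with earlier results of these data known. The interval calculation was checked on simulated reads drawn independently from known shares, which does not cover reads copied by PCR. Python 3.11.15, numpy 2.4.6, pandas 2.3.3, statsmodels 0.14.6 and matplotlib 3.10.9 were used. The alternatives were the expression value, a total without miR-1a-3p, read minimums, merged near-identical names and other family and list definitions. The day 1 and day 3 libraries were not used here.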

Additional observations from a re-analysis of the deposited data

How the results depend on the processing

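Of 53 alternative values, 20 stayed within the counting interval or within 1.5-fold of a count, and 33 moved. Shares were judged by the interval, which is narrow at this depth, so let-7 at 6.27% and 6.30% counted as moved. The tally mixes unlike limits and does not measure how far the results depend on processing. By the expression value, the 10 leading miRNAs held 45.1%, miR-1a-3p 6.22%, let-7 13.5%, the 10 seed families 49.4%, the 5p arm 54.6%, and the striated, endothelial, smooth muscle, erythroid and leukocyte lists 16.4%, 5.34%, 4.30%, 1.70% and 1.37%. A first base U led 60.7%, the first cluster held 9.85%, and 13 and 53 miRNAs reached 50% and 90%. With miR-1a-3p out of the total, the 10 leaders held 73.4%, let-7 8.18%, the seed families 64.1%, and the same 5 lists 8.58%, 7.75%, 4.57%, 0.932% and 0.673%. The 10 leaders held 81.9% with near-identical names summed and 78.5% with equal sequences and counts taken once. A minimum of 10 reads left 421 miRNAs. By name, let-7 held 6.30% and the 10 families 85.9%. Stems with at least 1000 reads gave a 5p share of 28.5% (28.45%) and 78 stems with 95% on 1 arm. The striated list held 30.2% with miR-486 and 27.3% without miR-1b-5p, and with lettered sister names the neuronal list held 0.00374% and the hepatocyte list 0.00183%. The last 3, the families by name and the equal sequences were chosen after seeing the data. The expression value was below the reads most where reads were many, and so gave the leaders smaller shares. Which of both is nearer to molecule numbers was not tested. No paired analysis was possible because day 0 is 1 library. Depth limits the 363 miRNAs with 1 to 9 reads.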

Other observations

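The clusters with the most hairpins added little to the resting pool. They were chosen after their values were seen. The cluster with the most hairpins, 62 in introns of Sfmbt2 on chromosome 2, carries 53 mature names, of which 34 were detected with 896 reads in all (0.0105% of the library), led by miR-467a-5p with 344. The next, 35 hairpins on chromosome 12 with several in the noncoding gene Mirg, within the imprinted Dlk1-Dio3 region, carries 65 names, of which 59 were detected with 23891 reads (0.281%), led by miR-411-5p with 10747. A further 11 hairpins of the same region carry 21 names, of which 20 were detected with 14630 reads (0.172%), led by miR-127-3p with 7452. The mean was 16.9 reads per name in the Sfmbt2 cluster against 368 and 697 in the chromosome 12 clusters.

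Members of other families with known roles lay below the 25 leaders. The miR-30 family, abundant in differentiated tissues, held 0.769% of the reads in 11 names, with 20318 reads for miR-30d-5p, 19290 for miR-30b-5p and 13206 for miR-30a-5p. The miR-10 miRNAs, which like miR-196a lie in the Hox clusters, were nearly level, with 24851 reads for miR-10a-5p and 22599 for miR-10b-5p. Their sequences are nearly identical, and the counting could split reads between them.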
